A study of Homo sapiens with 8 samples.

Results

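The 10 enzymes described here make serine, asparagine, proline, cysteine and phosphoenolpyruvate, or move the carbon of serine into the folate pool of mitochondria. They were chosen by name as amino acid and one-carbon enzymes controlled by the transcription factor ATF4, plus PCK2. The choice was made with earlier results of these data known. The enzymes are PHGDH, PSAT1 and PSPH (serine synthesis), SHMT2 and MTHFD2 (mitochondrial one-carbon metabolism), ASNS (asparagine synthesis), PYCR1 and ALDH18A1 (proline synthesis), CTH (cysteine synthesis) and PCK2 (phosphoenolpyruvate synthesis). All 10 were among the 60230 genes of the count table and among the 13400 genes that had enough counts to be tested.

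RNA was sequenced from HepG2 cells, an established human liver cancer cell line, that overexpressed cytochrome P450 2C19 (CYP2C19), a drug-metabolizing enzyme, and were kept under blasticidin selection. The cells of the 4 groups received DMSO, compound 4 (metylcresol in the labels), compound 5 (tetrabut) or compound 6 (cyclohexil) for 24 h, with 2 libraries in each group, labelled day 1 and day 2 and called replicates 1 and 2 here. Compounds 4 to 6 are bisphenol antioxidants used in plastics. Compounds 4 and 6 share a methylene bridge and differ in the bulky group beside each hydroxyl, which is tert-butyl in compound 4 and cyclohexyl in compound 6, whereas compound 5 carries a methyl on its bridge and tert-butyl both beside and opposite each hydroxyl. Each compound was given at its own IC50, so the concentrations were close but not equal, and the part of the dose in a difference between compounds was not tested. Every group carried the overexpression construct, all cells came from one line, and untransfected cells were not analysed here. Nothing in the labels says that the replicates were separate cultures beyond the day, so the p-values measure the spread between these libraries, which may be partly technical.

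Serine is built from the glycolytic intermediate 3-phosphoglycerate in successive steps by PHGDH, PSAT1 and PSPH, and SHMT2 and MTHFD2 then pass one of its carbons to folate for the synthesis of nucleotides. ASNS makes asparagine from aspartate, ALDH18A1 and PYCR1 stand at the start and the end of proline synthesis from glutamate, CTH releases cysteine from cystathionine, and PCK2 makes phosphoenolpyruvate in mitochondria. Many of these genes are textbook targets of the transcription factor ATF4, which is translated when amino acids run short or when proteins misfold in the endoplasmic reticulum, and which binds, as a dimer with C/EBP proteins, to sites of the form TGATGNAA.

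That motif was searched on both strands from 250 bases before to 50 bases after the start of each RefSeq gene (GRCh38.p14), and 3.62% of 35116 promoters held it. A promoter was at hand for 7 of the 10 enzymes, and 1 of them, ASNS, held a match, at −68 from the start. No match was in the windows of PHGDH, PSAT1, MTHFD2, ALDH18A1, CTH or PCK2, which says only that these letters are absent from those windows. Of 77 genes of related pathways with a promoter, 12 held a match, in 14 of their 120 promoters, some of which overlap. These genes include GOT1, which makes the aspartate that ASNS uses, and CEBPG, a partner of ATF4. Other genes with a match, among them SLC3A2 and SLC1A5, also passed the test below, and their windows are not shown. The windows of ASNS, GOT1 and CEBPG are shown as examples of genes with a match whose mRNAs passed the test in at least 1 comparison below. Of these windows, those of GOT1 and CEBPG were picked after their values were seen. They lie at chr7:97872423-97872522 (minus strand), chr10:99430769-99430868 (minus strand) and chr19:33374025-33374112 (plus strand), are written 5′ to 3′ along the gene, and have the motif, or its reverse complement in GOT1, in capitals.
ASNS: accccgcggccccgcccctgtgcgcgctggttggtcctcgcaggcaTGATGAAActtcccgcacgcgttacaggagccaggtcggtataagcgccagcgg
GOT1: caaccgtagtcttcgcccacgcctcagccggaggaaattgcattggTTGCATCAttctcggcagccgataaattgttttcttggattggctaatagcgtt
CEBPG: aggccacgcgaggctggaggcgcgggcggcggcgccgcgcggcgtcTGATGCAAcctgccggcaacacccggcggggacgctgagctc

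The library totals were between 9791659 and 17814595 counts, with a median of 11108659.5, and the 10 enzymes together took between 0.1815% and 0.2597% of a library. The lowest count of any enzyme was 161 (CTH in both DMSO libraries) and the highest was 6913. All 8 hepatocyte markers were detected, and of the 3 leukocyte markers PTPRC and CD3E had 0 counts in every library. The other leukocyte marker, CD68, was at 24.7 and 20.1 CPM (counts scaled to a common library size after TMM normalization) with DMSO and rose to 39.3 and 38.6 CPM with compound 4 (adjusted p = 0.0164). The cholangiocyte markers KRT19 (112.1 to 215.3 CPM) and SOX9 (109.6 to 172.5 CPM) were present in all libraries, and neither passed the test against DMSO. The summed level of the hepatocyte markers was between 41670 and 45990 CPM in the DMSO libraries, and lower in the libraries of compound 4 (30400 to 36240 CPM), compound 5 (36830 to 38700 CPM) and compound 6 (32010 to 37440 CPM). This sum is carried by ALB, APOB, TF, SERPINA1 and APOA1, of which APOA1, APOB and TF fell with compound 4. With compound 5 the markers did not all go one way. FGB rose, from 172.5 and 200.3 CPM to 253.7 and 284.8 CPM (adjusted p = 0.0301 in edgeR). Both libraries of ALB, APOA1 and APOB were below both DMSO libraries, with APOA1 at 2244 and 2538 CPM against 3556 and 3278 CPM. CYP2C19 itself was at 27.7 and 16.4 CPM in the DMSO libraries, at 31.4 and 44.3 CPM under compound 4, at 52.8 and 38 CPM under compound 5 (adjusted p = 0.0395 against DMSO), and at 23.9 and 21.2 CPM under compound 6. The part of the marker and CYP2C19 levels in the changes below was not tested, and fewer cells of a kind cannot be told apart from less RNA per cell in these bulk libraries.

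The question put to the data was whether the compounds changed these enzymes. Compound 4 changed 4 of the 10, with SHMT2, MTHFD2 and ASNS higher and ALDH18A1 lower. Compound 5 raised SHMT2, MTHFD2, ASNS and CTH, and compound 6 raised ASNS and PCK2. ASNS was thus the 1 enzyme that passed the threshold, an adjusted p under 0.05 in the quasi-likelihood test of edgeR over all tested genes, with every compound. Compound 4 took 9.51% of all tested genes past it (5.6% higher and 3.91% lower), compound 5 took 8.3% (5.35% higher), and compound 6 took 0.575% (0.493% higher). The adjustment over all tested genes was stricter with compound 6, so a missing call there does not mean a smaller change. In the edgeR test the unadjusted p of SHMT2 was 0.0024 with compound 4, which passed, and 0.00206 with compound 6, which did not. For MTHFD2 these values were 0.00345 and 0.00218, again with a call for compound 4 only. The 3 comparisons share the DMSO libraries. The median log2-fold change of the 10 enzymes was 0.34 for compound 4, 0.34 for compound 5 and 0.49 for compound 6, whereas the median of all tested genes was 0.01, 0.00 and 0.02, respectively.

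**Figure D1:**
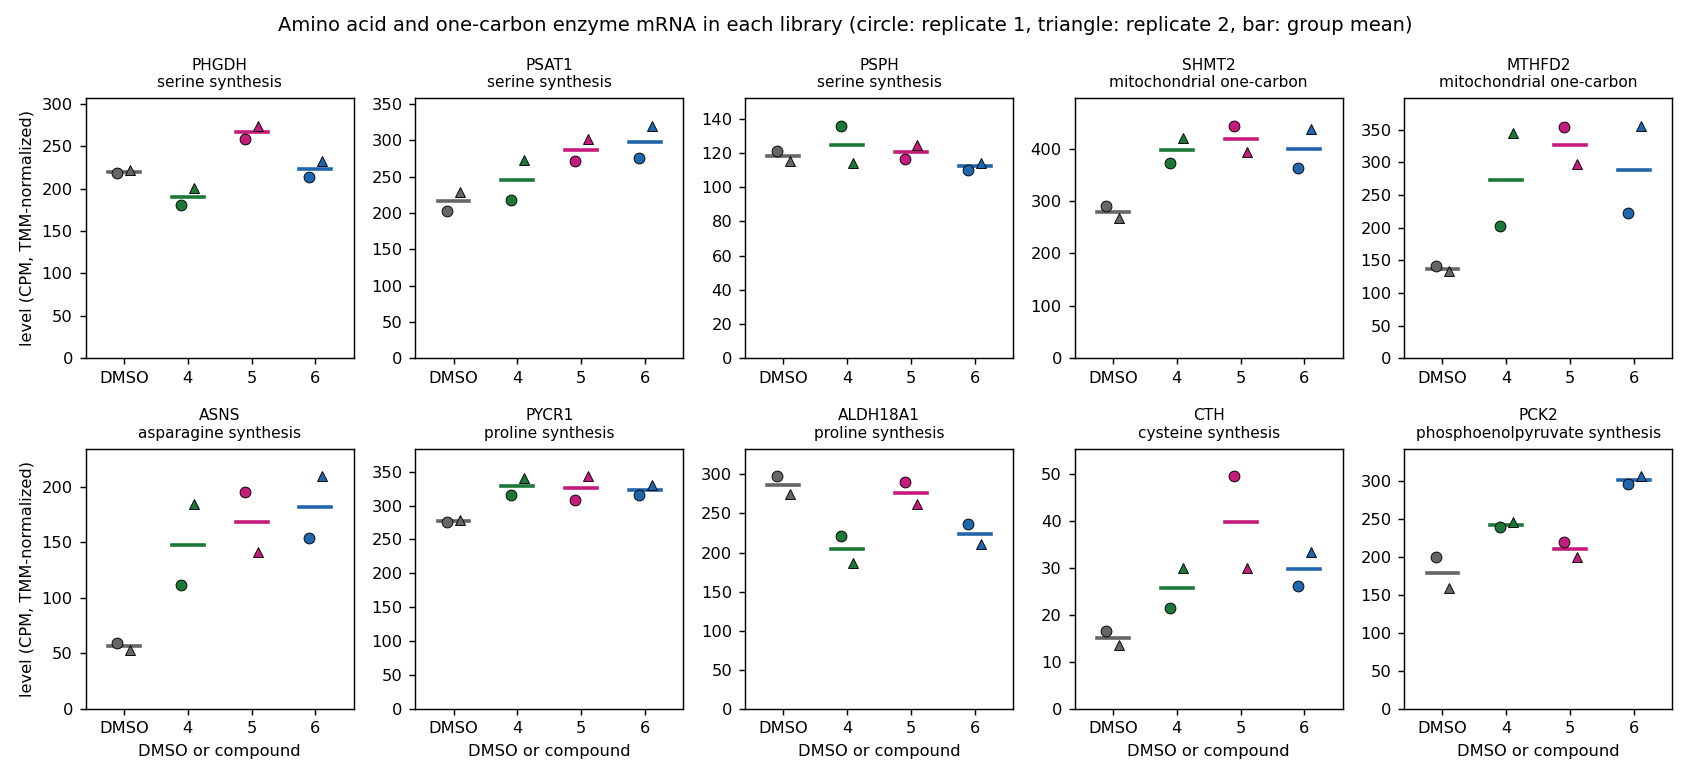
Level of each enzyme in each library, in CPM on axes that start at 0, for DMSO and compounds 4, 5 and 6 (circle: replicate 1, triangle: replicate 2, bar: mean of the 2 libraries). The ASNS level was between 53.3 and 59.1 CPM in the DMSO libraries and between 111.3 and 209.3 CPM in the 6 treated libraries.

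ASNS (ENSG00000070669, chr7:97852118-97872542, minus strand) had the largest fold changes of the group with compounds 4, 5 and 6. Its counts were 577 and 636 with DMSO, 1186 and 2421 with compound 4, 2374 and 2488 with compound 5, and 1571 and 2209 with compound 6. After normalization these were 59.1 and 53.3 CPM with DMSO, 111.3 and 184.1 CPM with compound 4, 195.4 and 141.6 CPM with compound 5, and 154.1 and 209.3 CPM with compound 6. Every treated library was thus above both DMSO libraries, and the treated replicates lay farther apart than the DMSO replicates. The log2-fold change was 1.40 ± 0.25 (SE, n = 2 libraries per group) for compound 4, with an adjusted p of 0.0119. For compound 5 it was 1.58 ± 0.25 (adjusted p = 0.00958) and for compound 6 it was 1.69 ± 0.25 (adjusted p = 0.0325), which are 3.00-fold and 3.24-fold higher levels. The gene shares exon sequence on the same strand with the transcript AC079781.5, whose counts were between 5.75% and 12.5% of those of ASNS, so that the split of reads between them is uncertain. The 4 named pseudogenes of ASNS had 0 counts.

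The mitochondrial enzymes of one-carbon metabolism are described next, in an order that is not by size of change. SHMT2 (ENSG00000182199, chr12:57229327-57234935, plus strand), which splits serine into glycine and a one-carbon unit, was at 290 and 267.9 CPM with DMSO. Its level was 372 and 420.7 CPM with compound 4, 443.3 and 393.4 CPM with compound 5, and 362.5 and 437.1 CPM with compound 6. All 6 treated libraries exceeded both DMSO libraries. The log2-fold changes were 0.51 ± 0.12 (SE) for compound 4 (adjusted p = 0.0343), 0.58 ± 0.12 for compound 5 (adjusted p = 0.0239) and 0.52 ± 0.12 for compound 6 (adjusted p = 0.0817). The size was close in the 3 comparisons, and the value for compound 6 did not pass the threshold.

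MTHFD2 (ENSG00000065911, chr2:74198562-74217565, plus strand), the dehydrogenase and cyclohydrolase that oxidizes the folate-bound one-carbon unit in mitochondria, was at 141.2 and 133 CPM with DMSO. It was at 202.5 and 344.9 CPM with compound 4, at 354.2 and 298.1 CPM with compound 5, and at 221.9 and 356 CPM with compound 6. Again no treated library overlapped the DMSO libraries, but the replicates of compounds 4 and 6 were far apart, with replicate 2 the higher in both groups. The log2-fold change was 1.00 ± 0.26 (SE) for compound 4 (adjusted p = 0.041), 1.25 ± 0.26 for compound 5 (adjusted p = 0.0226) and 1.08 ± 0.26 for compound 6 (adjusted p = 0.0823). With the Wald test of DESeq2, the value for compound 4 was not past the threshold (adjusted p = 0.0593, range over all alternatives 1.55e-12 to 0.261).

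The enzymes of serine synthesis changed less, and none of the 3 passed the threshold with any compound. PHGDH (ENSG00000092621, chr1:119648411-119744226, plus strand), the first enzyme of the pathway, was at 217.9 and 222.1 CPM with DMSO, 180.8 and 200.4 CPM with compound 4, 258.8 and 274.1 CPM with compound 5, and 213.4 and 233 CPM with compound 6. Both libraries of compound 4 were below DMSO and both of compound 5 above it, while those of compound 6 lay on either side. The log2-fold changes were −0.21 ± 0.10 (SE, adjusted p = 0.225), 0.28 ± 0.10 (adjusted p = 0.115) and 0.02 ± 0.10 (adjusted p = 0.937) for compounds 4, 5 and 6, respectively.

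PSAT1 (ENSG00000135069, chr9:78297143-78330093, plus strand), the transaminase of the second step, was at 202.7 and 229.6 CPM with DMSO, 218.5 and 272.9 CPM with compound 4, 271.8 and 301.8 CPM with compound 5, and 276.5 and 320.2 CPM with compound 6. The libraries of compound 4 overlapped those of DMSO, and the others did not. The log2-fold changes were 0.18 ± 0.14 (SE, adjusted p = 0.418) for compound 4, 0.41 ± 0.14 (adjusted p = 0.0905) for compound 5 and 0.46 ± 0.14 (adjusted p = 0.128) for compound 6. With the replicate number as a block, compound 5 passed the threshold (adjusted p = 0.0247, range over all alternatives 0.0148 to 0.344).

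PSPH (ENSG00000146733, chr7:56011051-56051604, minus strand), the phosphatase that releases serine, had the narrowest range of the group, from 110.4 to 136 CPM over the 8 libraries. Its log2-fold changes were 0.08 ± 0.11 (SE, adjusted p = 0.695), 0.02 ± 0.11 (adjusted p = 0.903) and −0.08 ± 0.11 (adjusted p = 0.756) for compounds 4, 5 and 6. The 95% intervals of the 3 values ran from −0.33 to 0.33, so larger changes are outside them.

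The proline enzymes went in different directions. ALDH18A1 (ENSG00000059573, chr10:95605929-95656706, minus strand), which activates and reduces glutamate at the start of proline synthesis, was at 297.4 and 275 CPM with DMSO. It was at 220.7 and 187.1 CPM with compound 4, at 290.7 and 261.5 CPM with compound 5, and at 236.6 and 211.1 CPM with compound 6. The libraries of compounds 4 and 6 were all below DMSO, and those of compound 5 overlapped it. The log2-fold change was −0.49 ± 0.12 (SE, adjusted p = 0.0335) for compound 4, −0.35 ± 0.12 (adjusted p = 0.162) for compound 6 and −0.05 ± 0.12 (adjusted p = 0.802) for compound 5. With compound 4 it was the 1 enzyme of the group past the threshold downwards, while PHGDH was lower without passing.

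PYCR1 (ENSG00000183010, chr17:81932384-81942412, minus strand), the mitochondrial reductase of the last step, was at 276.3 and 278.9 CPM with DMSO. All 6 treated libraries were higher, between 308.6 and 343 CPM. The log2-fold changes were 0.24 ± 0.10 (SE, adjusted p = 0.151), 0.23 ± 0.10 (adjusted p = 0.164) and 0.22 ± 0.10 (adjusted p = 0.277) for compounds 4, 5 and 6, none of which passed the threshold.

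CTH (ENSG00000116761, chr1:70411218-70439851, plus strand), which cleaves cystathionine to cysteine, had the lowest counts: 161 and 161 with DMSO, 229 and 395 with compound 4, 600 and 526 with compound 5, and 265 and 352 with compound 6. These were 16.5 and 13.5 CPM with DMSO, 21.5 and 30 CPM with compound 4, 49.4 and 29.9 CPM with compound 5, and 26 and 33.3 CPM with compound 6. Every treated library was above DMSO, and replicate 1 of compound 5 was the highest. The log2-fold change was 1.40 ± 0.26 (SE, adjusted p = 0.0155) for compound 5. The values of 0.79 ± 0.26 for compound 4 (adjusted p = 0.0904) and 0.99 ± 0.27 for compound 6 (adjusted p = 0.108) missed the threshold.

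PCK2 (ENSG00000100889, chr14:24094053-24110598, plus strand), which turns oxaloacetate into phosphoenolpyruvate, was at 199 and 158.3 CPM with DMSO, the widest DMSO pair of the group on the log2 scale (a difference of 0.33). Its level was 239 and 245.5 CPM with compound 4, 219.2 and 200.1 CPM with compound 5, and 295.4 and 305.6 CPM with compound 6. All 6 treated libraries were above both DMSO libraries, those of compound 5 only just. The log2-fold change was 0.75 ± 0.12 (SE, adjusted p = 0.0463) for compound 6. It was 0.44 ± 0.12 (adjusted p = 0.0513) for compound 4, which passed the threshold with the replicate block (adjusted p = 0.0361, range over all alternatives 0.01 to 0.353), and 0.23 ± 0.12 (adjusted p = 0.239) for compound 5.

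**Figure D2:**
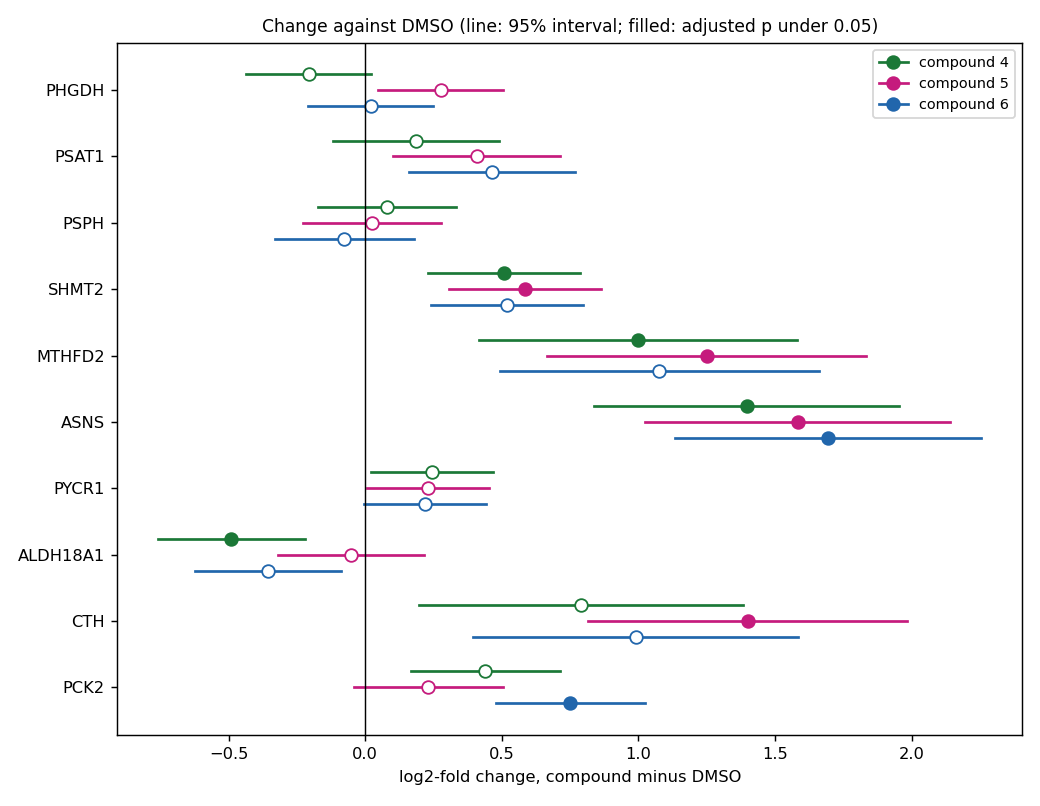
Log2-fold change of each enzyme against DMSO for compounds 4, 5 and 6 (point: estimate, line: 95% interval, filled: adjusted p under 0.05 in edgeR). ASNS is filled for all 3 compounds, with values of 1.40, 1.58 and 1.69, and ALDH18A1 is the 1 filled point below 0.

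By library order alone, 6 of the 10 enzymes were higher and 2 lower in both libraries of compound 4 than in both DMSO libraries. For compound 5 these numbers were 8 and 0, and for compound 6 they were 7 and 2. Of all tested genes, 30.4% and 28% stood apart in this way upwards and downwards with compound 4, 31% and 28.5% with compound 5, and 29.3% and 26% with compound 6.

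These calls depended on single libraries. Without replicate 1 or without replicate 2 of DMSO, 0 of the 10 enzymes passed the threshold for any compound, although the log2-fold changes of ASNS stayed at 1.47 and 1.32 (compound 4), 1.65 and 1.51 (compound 5), and 1.76 and 1.62 (compound 6). The lone DMSO library is then assumed to vary like the other groups, and the calls over all genes also fell, from 1275, 1112 and 77 to 390, 77 and 5 without replicate 1 and to 43, 46 and 2 without replicate 2. Without replicate 2 of compound 4, MTHFD2 was at 0.56 with compound 4, against 1.00 with both libraries. Without replicate 1 of compound 4, SHMT2 was at 0.58 with compound 4, against 0.51 with both libraries. Without replicate 1 of compound 5, CTH was at 0.99 with compound 5, against 1.40 with both libraries. Without replicate 2 of compound 6, ASNS was at 1.46 with compound 6, against 1.69 with both libraries. With compound 6, PCK2 was at 0.76 without its replicate 1 and at 0.73 without its replicate 2, against 0.75 with both. Without replicate 1 or replicate 2 of compound 6, ALDH18A1 with compound 4 had log2-fold changes of −0.49 and −0.49 that had not moved. Calls of these enzymes were lost in each of these settings. The calls over all genes for the same compound also fell, so the losses cannot be read as particular to the enzymes. Without replicate 1 or replicate 2 of compound 5, in contrast, CTH (compounds 4 and 6) and PCK2 (compound 4) gained calls. The log2-fold changes of CTH were then 0.79 and 0.79 with compound 4, and 0.98 and 0.99 with compound 6. Those of PCK2 were 0.44 and 0.44 with compound 4. The calls over all genes also rose for both compounds, so these gains cannot be read as particular to CTH and PCK2.

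The replicates of a group also differed in a way that ran through several enzymes. Replicate 2 was the higher for 8 of the 10 enzymes with compound 4 and for 9 of 10 with compound 6, but for 4 with compound 5 and 3 with DMSO. MTHFD2 showed differences of 0.77, 0.68 and −0.25 (log2, replicate 2 minus 1) with compounds 4, 6 and 5. ASNS showed differences of 0.72, 0.44 and −0.47 in the same order, and CTH of 0.48, 0.36 and −0.72. The median difference in size between replicates was larger for the 10 enzymes than for all tested genes with compound 4 (0.245 against 0.192) and compound 6 (0.188 against 0.159), and smaller with compound 5 (0.152 against 0.214) and DMSO (0.114 against 0.158). Relative to counting noise, the enzymes had the larger spread in every group. Their median chi-square between replicates was 22 with compound 4, against 2.32 for tested genes with a minimum count. It was 29.4 against 3.393 with compound 5, 11.83 against 1.44 with compound 6, and 1.823 against 1.576 with DMSO. Neither measure was matched for count. With only replicate 1 of each group, ASNS was 0.91 above DMSO with compound 4 and 1.72 with compound 5, and with only replicate 2 it was 1.79 and 1.41 (values with no test).

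Between compounds, 0 of the 10 enzymes passed the threshold in any of the 3 comparisons, in which 0.313% (compound 4 against 5), 0% (4 against 6) and 1.03% (6 against 5) of all tested genes did. At an unadjusted p under 0.05, there were 3, 1 and 3 enzymes, against 16.2%, 7.05% and 18.5% of all tested genes, and the Wald test of DESeq2 called 1 (PHGDH), 0 and 1 (PCK2), while its calls over all genes were also more numerous, at 194, 59 and 364 against 42, 0 and 138 in edgeR. The nearest to the threshold was PCK2, which was higher with compound 6 than with compound 5 by 0.52 (95% interval 0.25 to 0.79, adjusted p = 0.0743). PHGDH was lower with compound 4 than with compound 5, by −0.48 (95% interval −0.71 to −0.25, adjusted p = 0.0889), and passed with the replicate block (adjusted p = 0.0411, range over all alternatives 0.00632 to 0.323). ALDH18A1 differed by −0.44 (95% interval −0.70 to −0.17, adjusted p = 0.143) and CTH by −0.61 (95% interval −1.17 to −0.05, adjusted p = 0.275) between the same compounds. The CTH difference was −1.19 with only replicate 1 of each group and 0.00 with only replicate 2 (30 CPM with compound 4 and 29.9 CPM with compound 5), so it rests on replicate 1.

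Compounds 4 and 6, which differ in tert-butyl against cyclohexyl, had the smallest adjusted p at PCK2, with a difference of −0.31 (95% interval −0.58 to −0.04, adjusted p = 0.614). For SHMT2 the difference was −0.01 (95% interval −0.29 to 0.27), and for PYCR1 it was 0.02 (95% interval −0.20 to 0.25). For ASNS the difference of −0.30 had an interval of −0.83 to 0.24, which leaves room for sizeable differences in either direction, so that the data do not show that the compounds act alike on it. Compounds 6 and 5 differed in ASNS by 0.11 (95% interval −0.42 to 0.65) and compounds 4 and 5 by −0.19 (95% interval −0.72 to 0.35).

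**Figure D3:**
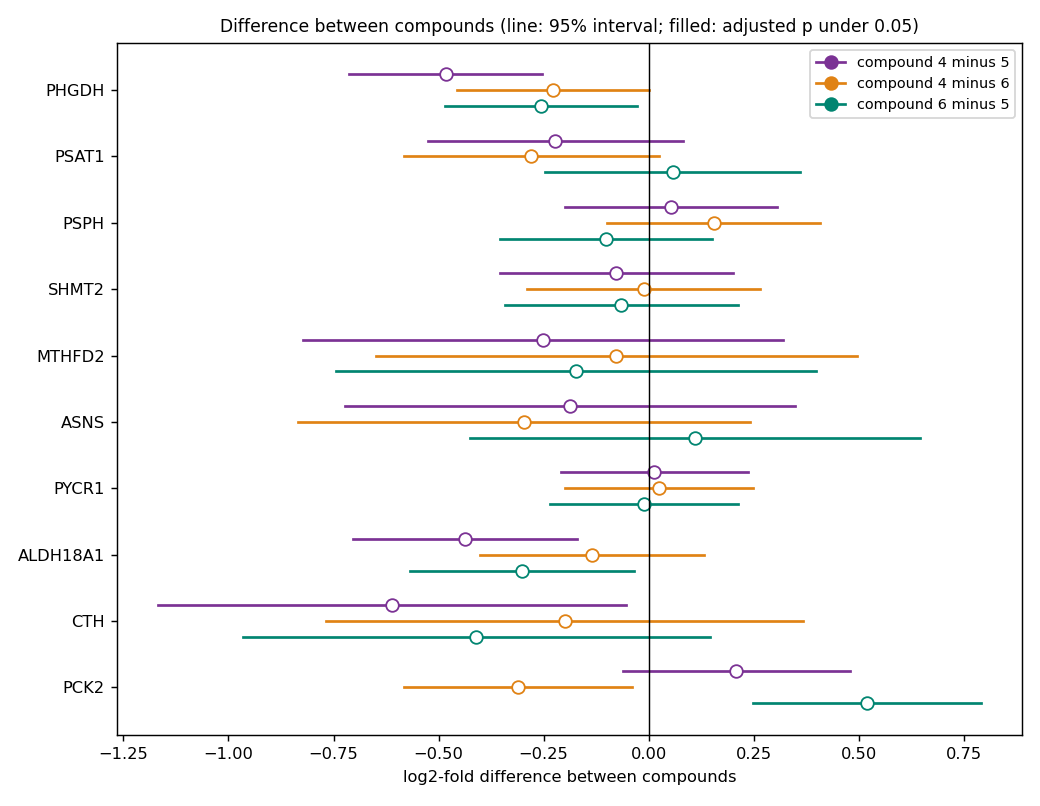
Log2-fold difference of each enzyme between compounds, each at its own IC50 (point: estimate, line: 95% interval). No point is filled, since none had an adjusted p under 0.05, and PHGDH, ALDH18A1, CTH and PCK2 have at least 1 interval that leaves out 0.

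Per kilobase of transcript, in CPM per kb, PYCR1 had the highest level in every group and CTH the lowest. With DMSO the order was PYCR1 (206.2 CPM per kb), SHMT2 (109.9), PSAT1 (98.77), ALDH18A1 (85.21), PHGDH (85.11), PCK2 (75.8), PSPH (54.36), MTHFD2 (30.77), ASNS (23.86) and CTH (8.305), each as the mean of 2 libraries. Among neighbours in this order, the ranges of ALDH18A1, PHGDH and PCK2 overlapped, and the others did not. With compound 6 ASNS reached 77.12 CPM per kb and rank 6, between PHGDH (86.34) and ALDH18A1 (66.64), with ranges that overlapped both. The order depends on the length used: per kilobase of coding sequence, MTHFD2, with its long untranslated part in the transcript used, was at rank 6 with DMSO in place of 8, and at rank 2 in place of 8 with compound 6.

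Related genes of the same pathways were followed in 8 lists, of which 91 of 97 genes were tested. Past the threshold were 14 higher and 4 lower genes with compound 4, 19 higher and 2 lower with compound 5, and 1 higher with compound 6. Over all tested genes, 5.6% were higher and 3.91% lower with compound 4, 5.35% higher and 2.95% lower with compound 5, and 0.493% higher with compound 6. The amino acid transporters had 5, 7 and 1 of 12 genes higher, and the regulators of the ATF4 pathway 2, 7 and 0 of 15, with 0 lower in either list. The median log2-fold change was 0.46, 0.70 and 0.42 for the transporters and 0.40, 0.68 and 0.52 for the regulators. The medians of the other 6 lists lay between −0.36 and 0.12.

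SLC7A11, the cystine importer, rose with all 3 compounds, from 64.9 and 56.6 CPM with DMSO to 108.6 and 157.9 CPM with compound 4, 257.7 and 136.8 CPM with compound 5, and 168.1 and 217.5 CPM with compound 6. Its log2-fold changes were 1.14 (adjusted p = 0.0366), 1.70 (adjusted p = 0.0114) and 1.67 (adjusted p = 0.0478). SLC3A2, the heavy chain that it pairs with, rose by 1.24 (adjusted p = 0.0334) with compound 4 and by 1.99 (adjusted p = 0.00927) with compound 5, and its value was 0.92 (adjusted p = 0.153) with compound 6. SLC38A2 (1.08, adjusted p = 0.0155) and SLC1A5 (0.77, adjusted p = 0.00993), which import neutral amino acids, rose with compound 5.

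Among the regulators, PPP1R15A, a phosphatase subunit that restores translation after stress, rose by 2.31 (adjusted p = 0.0188) with compound 5. DDIT3, a stress-induced transcription factor, rose by 1.93 (adjusted p = 0.0413) and CEBPB by 1.03 (adjusted p = 0.0227) with the same compound. The replicates of compound 5 lay far apart, at 194.2 and 104.6 CPM for PPP1R15A and at 70.1 and 25.7 CPM for DDIT3. CEBPB was the higher in replicate 2, at 100.5 and 163.4 CPM. With DMSO the levels were 33.8 and 26.6 CPM (PPP1R15A), 13.9 and 11.1 CPM (DDIT3), and 63.4 and 66.3 CPM (CEBPB). With compound 4 it was NUPR1, a small stress-induced chromatin protein, that rose most, by 1.74 (adjusted p = 0.00662). ATF4 and CEBPG, which the rule for named genes did not take, are given after their values were seen. ATF4 was at 423.8 and 405.8 CPM with DMSO and had log2-fold changes of 0.40 (adjusted p = 0.0903), 0.65 (adjusted p = 0.0222) and 0.42 (adjusted p = 0.149) with compounds 4, 5 and 6. CEBPG had values of 0.73 (adjusted p = 0.0402), 0.68 (adjusted p = 0.0552) and 0.62 (adjusted p = 0.138). CHAC1 had 0 counts in all libraries.

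**Figure D4:**
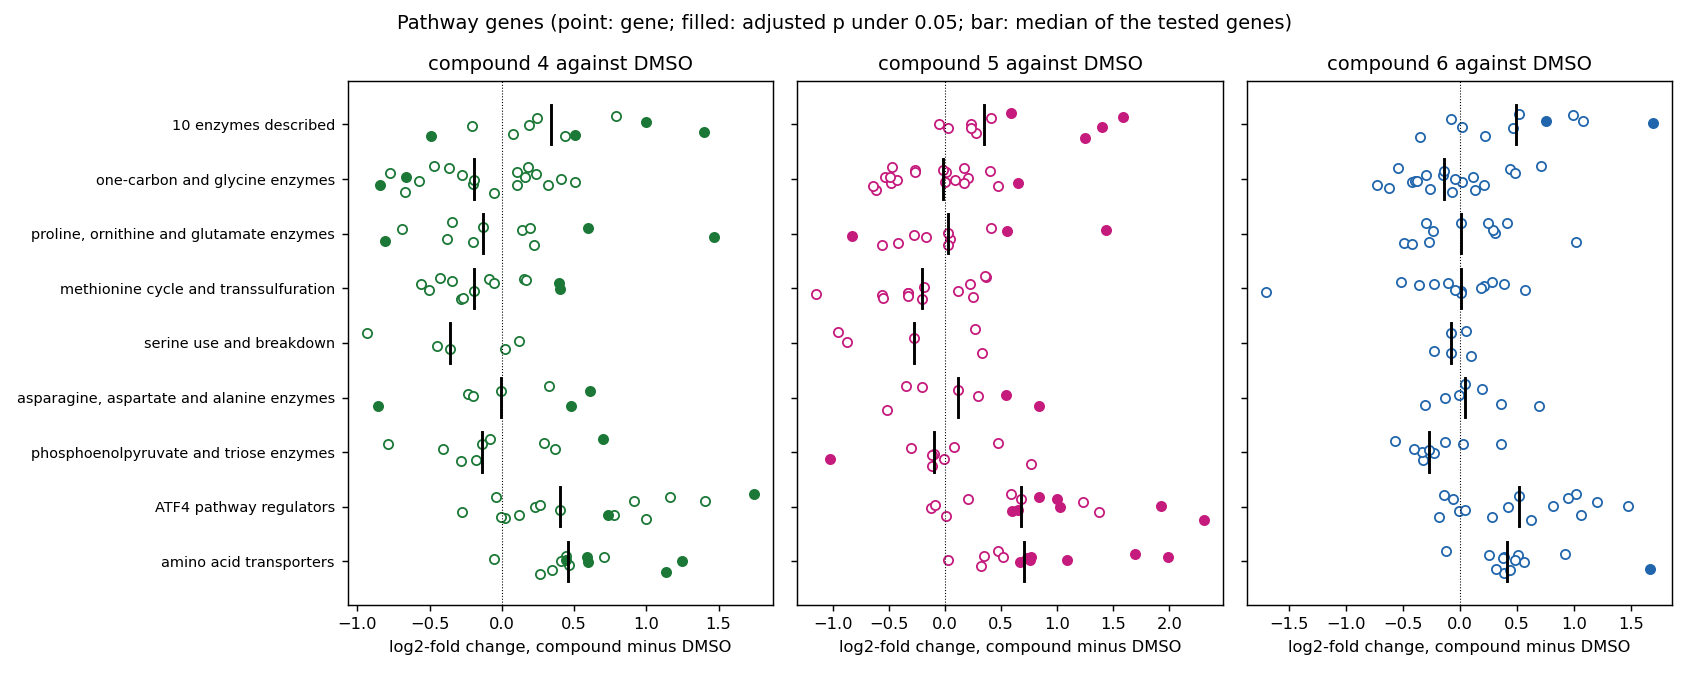
Log2-fold change against DMSO of the 10 enzymes and of the genes of 8 related lists (point: gene, filled: adjusted p under 0.05 in edgeR, bar: median of the tested genes). The medians of the transporters (0.46, 0.70 and 0.42) and of the ATF4 pathway regulators (0.40, 0.68 and 0.52) lie to the right of those of the other lists, beside those of the 10 enzymes (0.34, 0.34 and 0.49).

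The paralogs of the enzymes did not share their calls. SHMT1, the cytosolic counterpart of SHMT2, fell by 0.66 with compound 4 (adjusted p = 0.026), and its values were −0.43 with compound 5 and −0.39 with compound 6 (adjusted p = 0.0956 and 0.198). The other one-carbon genes past the threshold were GLDC, the glycine decarboxylase, which fell by 0.84 with compound 4 (adjusted p = 0.0159), and ALDH1L2, the mitochondrial formyltetrahydrofolate dehydrogenase, which rose by 0.65 with compound 5 (adjusted p = 0.0349). MTHFD2L, a close relative of MTHFD2, had values of −0.20, −0.02 and −0.07 (adjusted p = 0.489, 0.954 and 0.858), and MTHFD1L, which acts after MTHFD2, of 0.32, 0.40 and 0.48 (adjusted p = 0.151, 0.0863 and 0.111). PYCR3, a cytosolic relative of PYCR1, fell by 0.81 with compound 4 (adjusted p = 0.0391) and by 0.83 with compound 5 (adjusted p = 0.0378). PCK1, the cytosolic relative of PCK2, was at 0.37, −0.01 and 0.03 (adjusted p = 0.515, 0.986 and 0.976). CBS, which makes the cystathionine that CTH cleaves, was at 0.17, 0.36 and 0.57 (adjusted p = 0.497, 0.138 and 0.0978).

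In the list of proline, ornithine and glutamate enzymes, ARG2, the mitochondrial arginase that leads to ornithine, rose by 1.47 with compound 4 (adjusted p = 0.026) and by 1.44 with compound 5 (adjusted p = 0.031). ALDH4A1, of proline breakdown, rose by 0.60 with compound 4 (adjusted p = 0.00841). Around ASNS, GOT1 rose by 0.61 (adjusted p = 0.032) and ASS1, which joins aspartate to citrulline, by 0.48 (adjusted p = 0.0392) with compound 4. With compound 5 GOT1 rose by 0.84 (adjusted p = 0.0132) and ASS1 by 0.54 (adjusted p = 0.0295). ASRGL1, which breaks asparagine down, fell by 0.86 with compound 4 (adjusted p = 0.0153). In the methionine list BHMT2 (0.39, adjusted p = 0.0415) and MPST (0.40, adjusted p = 0.0369) rose with compound 4, and near PCK2 the pyruvate carboxylase PC rose by 0.70 with compound 4 (adjusted p = 0.0182) and the liver pyruvate kinase PKLR fell by 1.03 with compound 5 (adjusted p = 0.0244). Of the 5 tested genes of serine use and breakdown, 0 passed in any comparison.

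Genes with the most similar pattern over the 8 libraries were found as those with the smallest root mean square difference in log2 CPM after centring on the DMSO mean. For ASNS they were FBLIM1 (0.101) and JDP2 (0.151), for MTHFD2 they were ITPRIP (0.112) and SH2B3 (0.134), and for SHMT2 they were FLII (0.0397) and CARD10 (0.0522). For CTH they were CASC19 (0.0712) and SNAI1 (0.0921), for PCK2 they were CAPRIN2 (0.119) and NPIPB3 (0.126), and for ALDH18A1 they were LINC00261 (0.0645) and SLC46A1 (0.0726). The mean profile of the 10 enzymes was nearest to CSMD1 (0.0608), ROCK2 (0.0661), XPOT (0.0689), MADD (0.0692) and HIF1A (0.0712).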

How the data were processed

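Transcript abundance was estimated by the authors with Salmon 1.5.0 on a GENCODE 38 index, after FastQC 0.12.0, and brought to gene level with tximeta. The deposited counts are whole numbers without normalization, for 8 libraries from a directional kit. Per the file headers, the replicate 1 columns of DMSO and compound 4 are each merged from 2 S numbers, and what these stand for is not given. Whether counting used the strand is not given in the sources used here, and no offsets for transcript length entered.

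The quasi-likelihood test of edgeR 4.0.16 (R 4.3.3) was applied to the counts after TMM normalization and filterByExpr at a minimum count of 10, which left 13400 genes, in 1 fit of all libraries with group means only. Adjustment over all tested genes followed Benjamini and Hochberg, with a threshold of 0.05, and intervals are at 95%. The same results were computed with DESeq2 1.42.0 (Wald test), the replicate number as a block, only the 4 libraries compared, size factors of DESeq2, other filters, and libraries left out. The code was tested on simulated data. The day in the labels pairs the replicates. Across tested genes, replicate 2 minus replicate 1 correlated between pairs of groups with r from −0.149 to 0.236 (6 pairs). With 2 against 2 libraries no permutation test can pass the threshold.

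All 10 enzymes are named, and in each list at most 4 genes past the threshold with the largest change against DMSO, beside the paralogs of the enzymes, and 2 genes taken by this rule are not reported here. The enzymes and lists were chosen with earlier results of these data known. Positions are on GRCh38 from GENCODE 29, lengths are of the transcript with the longest coding sequence, and promoters are from RefSeq. Python 3.11.15, pandas 2.3.3 and matplotlib 3.10.9 served for tables and plots.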

Additional observations from a re-analysis of the deposited data

How the results depend on the processing

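No log2-fold change that passed the threshold turned its direction under any alternative. For compound 6 against DMSO, the number of enzymes past the threshold rose from 2 to 5 with the Wald test of DESeq2, to 6 with only the 4 libraries compared and to 6 with no filter on low counts. For compound 4 against compound 5 it rose from 0 to 1 with DESeq2, to 1 with the replicate block (PHGDH) and to 3 with no filter. For compound 6 against compound 5 it rose from 0 to 1 with DESeq2 and to 1 with no filter, PCK2 in both. With no filter, the adjusted p of MTHFD2 in edgeR with compound 6 went from 0.0823 to 4.29e-14. Its log2-fold change was nearly the same, at 1.08 and 1.06. The calls over all genes with no filter are not given, so the rises in that setting cannot be read as particular to the enzymes. With compounds 4 and 5 against DMSO the number was between 4 and 6 under these settings, and the replicate block gave 5 for each, against 4 without it. Beyond PHGDH, and PCK2 (compound 4) and PSAT1 (compound 5) against DMSO, the replicate block changed no call of an enzyme. Size factors of DESeq2 changed no call of an enzyme.

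Leaving out 1 library changed the number of enzymes past the threshold against DMSO for every compound, and no enzyme gained a call between compounds. The calls over all genes also changed widely in these settings, so the changes cannot be read as particular to the enzymes. Over all genes, the replicate block called 1699, 1429 and 68 genes for compounds 4, 5 and 6 and 128, 1 and 269 between compounds (4 against 5, 4 against 6, 6 against 5), and DESeq2 called 1384, 1284 and 518 genes against DMSO, where edgeR without a block called 1275, 1112 and 77, and with only 4 libraries edgeR called 1553, 847 and 1023. The cause of these differences was not tested. With 2 libraries per group, the median half-width of the 95% intervals of the 10 enzymes was 0.28 on the log2 scale.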
